A study of Mus musculus with 2 samples.

Results

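The CD3 chain genes and the neighbours of Cd3d on mouse chromosome 9 are described here across the cell types of 2 blood libraries. The set holds 7 of the 32285 genes in the count tables. Cd3d, Cd3e, Cd3g and Cd247 encode the CD3 chains, and Ube4a, Kmt2a and Il10ra lie on the same chromosome within 1 Mb of the start of Cd3d. The set was chosen by the ratio of Cd3d between APP/PS1 and WT neutrophils in these same libraries, so that ratio is given as a description.

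Single-cell RNA-seq was performed on blood neutrophils from WT mice and from APP/PS1 transgenic mice, which carry mutant human amyloid precursor protein and presenilin 1 and accumulate amyloid in the brain. The methods describe female mice at 7 months of age and list C57BL/6J mice besides the transgenic line. The promoter of the transgenes and the strain of the APP/PS1 line are not given in the sources used here. Both libraries came from blood in which red cells were lysed and neutrophils were enriched with a negative selection kit, so that cells of other types remained. The transgenes were not looked for in the counts, and the labels are taken as given. Each library was made from 3 pooled mice, so there was 1 library per genotype and no replicate, and no test was run. All intervals are exact 95% intervals for counting error only, and they do not cover differences between mice.

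The T cell receptor recognises its ligand through variable chains that have hardly any cytoplasmic part. Signals enter the cell through the CD3 chains, in which a delta-epsilon dimer, a gamma-epsilon dimer and a zeta homodimer carry the motifs that Lck phosphorylates and Zap70 binds. The delta, epsilon and gamma genes form a cluster that is used in T cells, whereas the zeta chain gene Cd247 also serves activating receptors of NK cells.

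Cd3d lies at chr9:44981786-44987339 on the plus strand of mm10 (GENCODE M21), and no annotated gene overlaps it. Cd3g lies at chr9:44969572-44980431 on the minus strand, with its start 1355 bp from that of Cd3d, so that both genes are read away from each other. Cd3e lies at chr9:44998740-45009627 on the minus strand, with its start 27841 bp from that of Cd3d. Ube4a (chr9:44923127-44965600), Kmt2a (chr9:44803355-44881296) and Il10ra (chr9:45253837-45269149) are on the minus strand, at start-to-start distances of 16186, 100490 and 287363 bp. Cd247 is on another chromosome, at chr1:165788681-165877277 on the plus strand. Because Cd3d and Cd3g share 1 short stretch between their starts, the 250 bases before the start of Cd3d (chr9:44981536-44981785, plus strand), Cd3g (chr9:44980432-44980681, minus strand) and Cd3e (chr9:45009612-45009861, minus strand) are shown 5′ to 3′ from the RefSeq table of GRCm38.p6, in which 6 of the 7 genes were found. Capitals mark matches on either strand to any of 7 motifs that are spelled out after the sequences, and no match overlapped another.
Cd3d: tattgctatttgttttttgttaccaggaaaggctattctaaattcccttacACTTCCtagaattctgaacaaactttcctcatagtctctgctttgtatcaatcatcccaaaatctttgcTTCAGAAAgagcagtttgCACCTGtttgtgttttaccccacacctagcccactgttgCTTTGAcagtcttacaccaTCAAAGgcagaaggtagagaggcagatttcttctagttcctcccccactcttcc
Cd3g: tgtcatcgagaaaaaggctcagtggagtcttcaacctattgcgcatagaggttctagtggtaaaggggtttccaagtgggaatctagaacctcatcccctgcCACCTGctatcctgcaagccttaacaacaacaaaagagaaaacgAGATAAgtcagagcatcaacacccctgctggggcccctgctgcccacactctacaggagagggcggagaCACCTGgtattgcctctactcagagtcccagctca
Cd3e: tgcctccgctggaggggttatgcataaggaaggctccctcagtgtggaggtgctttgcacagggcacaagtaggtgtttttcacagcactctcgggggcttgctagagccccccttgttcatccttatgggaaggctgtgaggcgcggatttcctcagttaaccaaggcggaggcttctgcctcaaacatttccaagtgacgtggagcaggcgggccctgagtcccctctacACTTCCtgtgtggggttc

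In the window of Cd3d the ETS match began 199 bases before the start, the C/EBP match 130, the E-box match 112 and the TCF matches 73 and 54. The window of Cd3g held E-box matches at 148 and 35 and a GATA match at 104, and that of Cd3e held 1 ETS match at 18. The ETS motif was searched as ACTTCC and was held by 19.7% of the 32851 windows of this length in the table. RUNX was searched as TGTGGT and held by 14.0% of them. TCF was searched as CTTTGA and held by 13.8%, and GATA as AGATAA and held by 9.99%. The E-box was searched as CAGGTG and held by 17.2%, and C/EBP as TTNNGNAA, in which N is any base, and held by 36.8%. The TATA box was searched as TATAAA and held by 12.4%. The RUNX and TATA box motifs were in none of the 6 windows. These are matches of letters only, in windows set by the RefSeq start, which for Cd3e differs slightly from the GENCODE start.

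There were 17123 cells in WT and 17645 in APP/PS1, with 83 barcodes in both libraries, and 14564 and 15208 cells passed the filters of the study. Clustering without the 7 genes gave 12 clusters, which were named neutrophil-like, monocyte-like and so on from marker lists that hold none of the 7 genes, and are called neutrophils, monocytes and so on here. Although the libraries were labelled as neutrophils, neutrophils made up 7583 cells in WT and 9585 in APP/PS1, monocytes 5444 and 3753, T cells 414 and 539, and NK cells 438 and 765. The 16 T cell markers summed to 4688 CPM (UMIs of a gene, scaled so that all genes of a cell type sum to the same total, as is usual for this unit) in WT T cells and 5243 CPM in APP/PS1 T cells, against 14.7 and 15.2 CPM in neutrophils. Of these markers, 1 of 16 was at 0 UMIs in neutrophils of each library.

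In WT, Cd3d was a T cell transcript. Its level was 521 CPM in T cells (490.0 to 553), 27.0 CPM in NK cells (19.7 to 36.0), 8.28 CPM in erythroid cells, 7.03 CPM in neutrophils (5.96 to 8.23), 4.04 CPM in B cells (1.62 to 8.32) and 1.46 CPM in monocytes (1.09 to 1.92). The intervals of erythroid cells, neutrophils and B cells overlapped. Basophils and platelets, with 1 UMI each, gave no usable level. T cells held 79.6% of the 1351 Cd3d UMIs in WT (77.4% to 81.8%) and neutrophils 11.3% (9.68% to 13.1%), although neutrophils held 33.7% of all UMIs.

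In APP/PS1 the order below T cells was another. Cd3d was at 583 CPM in T cells (552 to 615) and at 48.1 CPM in neutrophils (45.7 to 50.7), which ranked next, with an interval apart from those of erythroid cells at 25.0 CPM (16.2 to 36.8), NK cells at 11.4 CPM (7.86 to 16.0), B cells at 8.65 CPM (5.04 to 13.8) and monocytes at 6.29 CPM (5.30 to 7.41). Neutrophils held 47.9% of the 2961 Cd3d UMIs (46.1% to 49.7%), close to their 48.6% of all UMIs, and T cells held 44.7%.

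The neutrophils gave 153 Cd3d UMIs in 7583 WT cells and 1418 in 9585 APP/PS1 cells. APP/PS1 was 6.85-fold higher, at a log2 ratio of 2.78 (2.53 to 3.03), and only 2 of the 10370 genes with at least 30 UMIs in neutrophils had a larger ratio. Of the 7 genes, 6 reached that minimum, and Cd3d alone passed a log2 ratio of 1 in either direction. Over all 10370 genes, 1.27% were over 1 log2 unit higher in APP/PS1 and 0.974% lower. Cd3d is the gene the set was chosen by, so nothing is read from its place in that background.

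**Figure D1:**
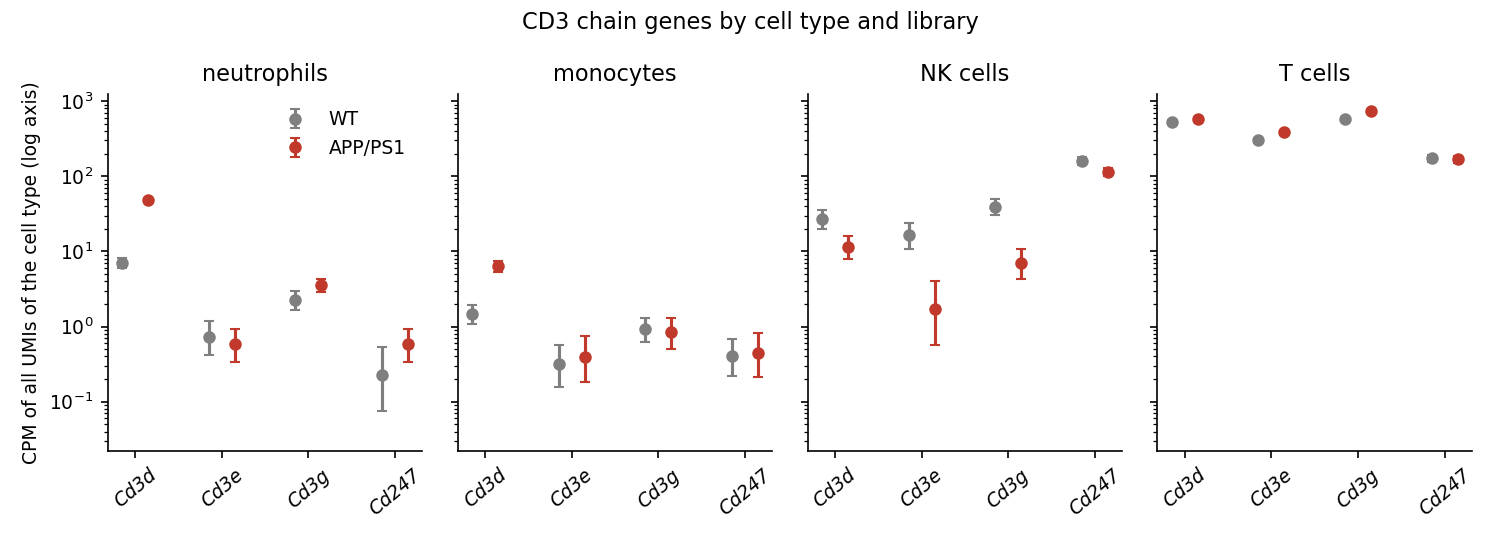
Summed level (CPM, log axis) of the 4 CD3 chain genes in neutrophils, monocytes, NK cells and T cells of the WT and APP/PS1 libraries; points are 1 library each and bars are exact 95% Poisson intervals for counting error. In neutrophils Cd3d lies at 7.03 (WT) and 48.1 CPM (APP/PS1), while Cd3e lies at 0.735 and 0.577 CPM, and in T cells all 4 genes lie above 100 CPM in both libraries.

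The difference was seen in each of the 3 neutrophil clusters. In the largest cluster, led by the chemokine gene Cxcl2 and the G-CSF receptor gene Csf3r, Cd3d was at 7.09 CPM in WT (127 UMIs) and 45.0 CPM in APP/PS1 (900 UMIs), a log2 ratio of 2.67 (2.40 to 2.95). In the cluster led by the interferon-induced gene Ifit3, it was at 4.88 CPM (16 UMIs) and 40.2 CPM (333 UMIs), a log2 ratio of 3.04 (2.32 to 3.87). In the cluster led by Camp, a secondary granule gene of immature neutrophils, it was at 17.4 CPM (10 UMIs) and 158 CPM (185 UMIs), a log2 ratio of 3.18 (2.27 to 4.26). The intervals of the ratio overlapped between the clusters, but the APP/PS1 level in the Camp-led cluster was above those of both other clusters with no overlap of intervals. Of the 3 clusters, the sum of the T cell markers was higher in APP/PS1 beyond counting error in the Camp-led cluster, at 10.4 CPM (6 UMIs) and 42.6 CPM (50 UMIs), a log2 ratio of 2.03 (0.81 to 3.54), against log2 ratios of -0.08 (-0.34 to 0.18) and -0.33 (-0.75 to 0.12) in the Cxcl2-led and Ifit3-led clusters. Other marker lists differed in the Camp-led cluster too. The sum of 4 plasma cell markers was 46.9 CPM (27 UMIs) and 774 CPM (909 UMIs), a log2 ratio of 4.04 (3.49 to 4.65), and that of 8 NK cell markers 13.9 CPM (8 UMIs) and 95.4 CPM (112 UMIs), a log2 ratio of 2.78 (1.75 to 4.03). The 6 erythroid markers were lower in APP/PS1 there, at 4395 and 532 CPM. The part of these lists in the Camp-led value was not tested. Without the Camp-led cluster the neutrophil log2 ratio was 2.69, and without the Ifit3-led cluster 2.79.

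**Figure D2:**
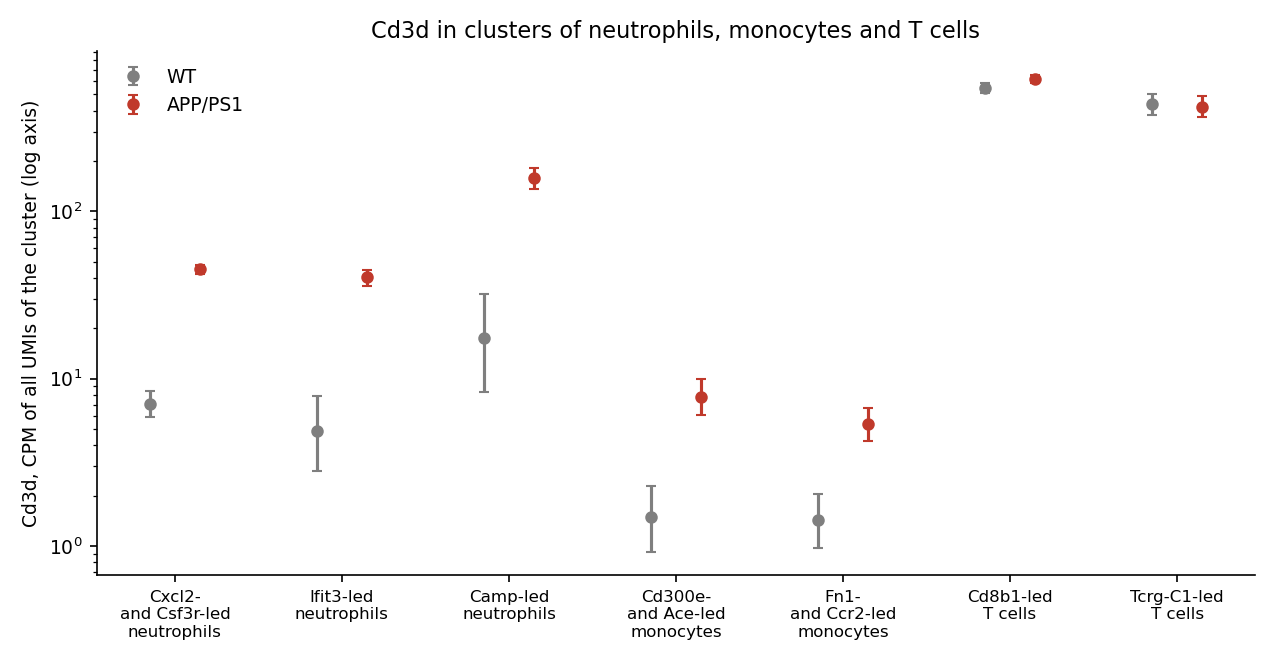
Cd3d level (CPM, log axis) in 3 neutrophil, 2 monocyte and 2 T cell clusters of each library, named by leading genes, with exact 95% Poisson intervals. The APP/PS1 points lie above the WT points without overlap in all neutrophil and monocyte clusters, and the points of the Tcrg-C1-led T cells, at 436 and 423 CPM, overlap.

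The UMIs were spread over many cells. At least 1 Cd3d UMI was found in 141 WT neutrophils, or 1.86%, and in 1006 APP/PS1 neutrophils, or 10.5% (9.89% to 11.1%). Free RNA gives UMIs in cells that do not use a gene, and B cells, which should lack Cd3d, had a UMI in 1.48% of WT and 1.91% of APP/PS1 cells at medians of 4682 and 5517.5 UMIs per cell, above the neutrophil medians of 2553 and 2703. The WT neutrophil share lay within the B cell interval (0.483% to 3.43%) at a lower depth, and no expression is read from that share alone, while the APP/PS1 share was above the B cell interval (0.772% to 3.90%). It was not above that of erythroid cells, of which 11.3% (6.63% to 17.8%) had a UMI in APP/PS1, against 1.93% (0.630% to 4.45%) in WT, at medians of 7543 and 7514 UMIs per cell. Of these erythroid cells, 45.2% in WT and 57.4% in APP/PS1 were called doublets. The 11 neutrophil markers summed to 33718 and 41004.5 CPM in them, against 12620 and 6807 CPM in B cells. The part of neutrophil RNA in the erythroid share was not tested. Neutrophils with 2 or more Cd3d UMIs numbered 10 in WT and 260 in APP/PS1, with at most 4 and 7 UMIs in a cell. In the Camp-led cluster 11.5% of WT cells and 46.9% of APP/PS1 cells had a UMI, at medians of 6330 and 6645 UMIs per cell. The interval of the WT share there (5.65% to 20.1%) lay above that of WT B cells. After each cell was thinned to 1000 UMIs, a depth that 2 neutrophils of APP/PS1 and 0 of WT did not reach, the shares over all neutrophils were 0.593% (0.433% to 0.793%) and 4.0% (3.61% to 4.41%), and in the Camp-led cluster 1.15% (0.0291% to 6.24%) and 14.3% (9.46% to 20.4%). Of the thinned B cells, 0 of 337 in WT had a Cd3d UMI, which allows a share of up to 0.890% if 3 cells are taken as the limit and 1.09% by the exact interval, and 0.546% (0.0662% to 1.96%) had one in APP/PS1. Of the thinned erythroid cells 1.16% (0.240% to 3.35%) and 2.84% (0.778% to 7.10%) had one, with an APP/PS1 interval that held that of the neutrophils. The thinned neutrophils gave a log2 ratio of 2.88 (2.44 to 3.35, 46 and 427 UMIs) in this random draw and 2.40 in another (67 and 446 UMIs), and the mean over cells, in which each cell counts alike and no draw is made, gave 2.72.

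Neutrophils with a Cd3d UMI carried few other T cell transcripts. Among the 1006 APP/PS1 neutrophils with Cd3d, 48 (4.77%, 3.54% to 6.28%) had a UMI of any of the 16 T cell markers, against 348 of 8579 (4.06%, 3.65% to 4.50%) of those without. A UMI of Cd3e, Cd3g or Cd247 was found in 24 of them (2.39%, 1.53% to 3.53%), against 109 without Cd3d (1.27%, 1.04% to 1.53%). In T cells of the same library, 98.6% of the 421 cells with Cd3d had one. The APP/PS1 neutrophils with Cd3d were somewhat deeper than those without, at medians of 3114.5 and 2662 UMIs. Cells called doublets by Scrublet made up 1.99% of those with Cd3d and 1.70% of those without. With all neutrophils that had a T cell marker UMI left out, 143 WT and 1347 APP/PS1 UMIs of Cd3d remained, at a log2 ratio of 2.80.

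In neutrophils the other chains had lower log2 ratios than Cd3d, and that of Cd3e alone was below 0. Cd3e, the partner of both the delta and the gamma chain, gave 16 UMIs in WT (0.735 CPM) and 17 in APP/PS1 (0.577 CPM), a log2 ratio of -0.35 (-1.42 to 0.73). Its interval did not reach that of Cd3d. Cd3g gave 49 UMIs (2.25 CPM) and 105 UMIs (3.56 CPM), a log2 ratio of 0.66 (0.16 to 1.18). The APP/PS1 level of Cd3g was thus higher beyond counting error, at a smaller ratio than that of Cd3d. Cd247 gave 5 and 17 UMIs, too few for the minimum, with a log2 ratio of 1.33 (-0.17 to 3.12). That interval held the interval of Cd3d, and over 10 alternatives the ratio of Cd247 was 1.12 to 3.13. The values of all 3 genes were below those of B cells of the same library. Those were 1.15 and 5.60 CPM for Cd3e, 16.2 and 14.2 CPM for Cd3g and 1.73 and 2.04 CPM for Cd247. The intervals overlapped for Cd3e in WT (2 B cell UMIs) and for Cd247 in both libraries (3 and 4 B cell UMIs).

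The proportions of the chains were also compared within each library. The make-up of the free RNA was not measured, and its part in the ratios was not tested. UMI counts of 3′ libraries are not scaled to gene length, so these ratios are compared between cell types and libraries and not read as protein proportions. In T cells there were 1.72 Cd3d UMIs per Cd3e UMI (1.56 to 1.90) in the WT library and 1.52 (1.40 to 1.66) in the APP/PS1 library. WT neutrophils had a ratio of 9.56 (5.70 to 17.2) and APP/PS1 neutrophils one of 83.4 (51.9 to 144). It was 75.0 in the Cxcl2-led cluster, 111 in the Ifit3-led cluster and 92.5 in the Camp-led cluster of APP/PS1, with 12, 3 and 2 UMIs of Cd3e. Both neutrophil ratios lay above those of T cells, also in WT. Monocytes had ratios of 4.64 (2.39 to 9.87) and 15.9 (8.14 to 35.5), also above T cells, and B cells 3.50 (0.666 to 34.5) and 1.55 (0.683 to 3.65). The ratio of Cd3g to Cd3e was 3.06 (1.71 to 5.77) and 6.18 (3.68 to 11.0) in neutrophils, against 1.92 and 1.91 in T cells, so that in APP/PS1 neutrophils it too was above the T cell value. The same held for WT B cells, at 14.0 (3.53 to 121) with 2 UMIs of Cd3e, while APP/PS1 B cells had 2.55 (1.23 to 5.67). Against Trac, the constant part of the receptor alpha chain, Cd3d stood at 153 to 6 UMIs in WT and 1418 to 3 in APP/PS1 neutrophils, and at 1076 to 443 and 1324 to 565 in T cells.

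**Figure D3:**
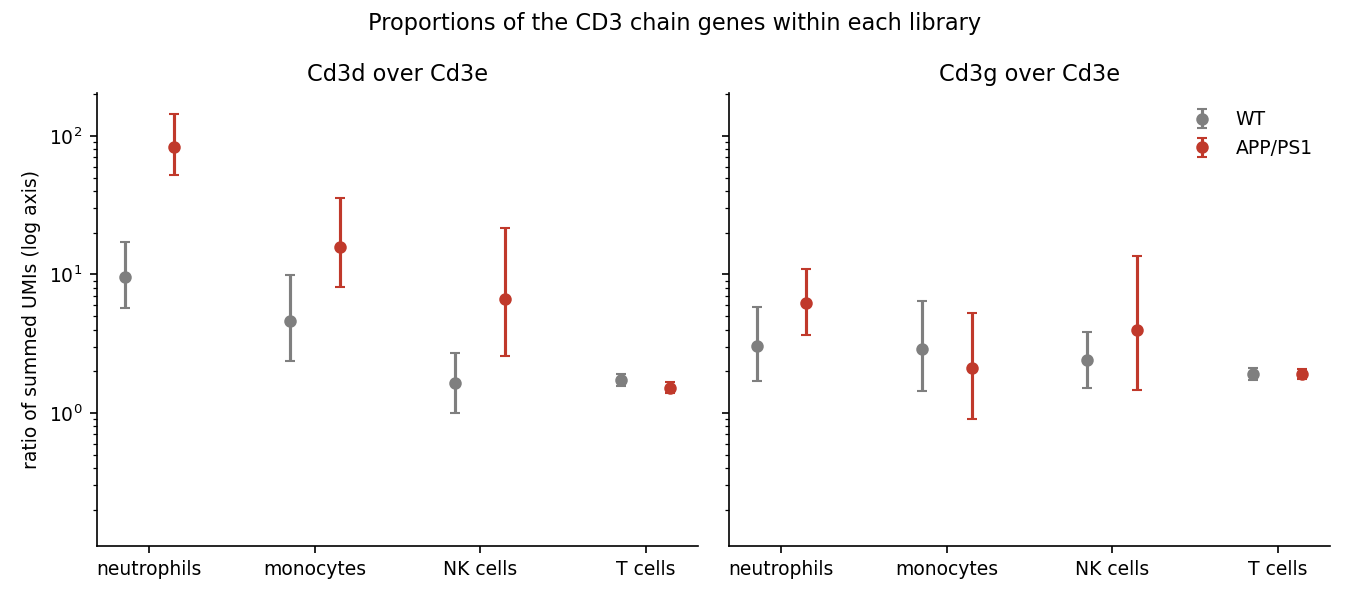
Ratio of summed UMIs of Cd3d to Cd3e (left) and of Cd3g to Cd3e (right) in 4 cell types of each library, on a log axis with exact conditional 95% intervals. The Cd3d to Cd3e ratio of APP/PS1 neutrophils, 83.4, stands above the T cell ratios of 1.72 and 1.52, whereas the Cd3g to Cd3e ratios span 1.91 to 6.18.

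Monocytes, the other abundant myeloid cells, gave 51 Cd3d UMIs in WT and 143 in APP/PS1, a log2 ratio of 2.11 (1.64 to 2.60). The ratio was 2.39 (1.66 to 3.17) in the Cd300e- and Ace-led cluster, the pattern of nonclassical monocytes, and 1.90 (1.27 to 2.56) in the Fn1- and Ccr2-led cluster, the pattern of classical monocytes. Of the 7 genes, 5 had enough UMIs in monocytes and only Cd3d passed 1 log2 unit, in a background of 0.942% of 11888 genes higher and 1.15% lower. The monocyte levels were low, however. They did not exceed those of B cells in either library, and 0.882% of WT and 2.98% of APP/PS1 monocytes had a Cd3d UMI, with an APP/PS1 interval (2.46% to 3.58%) inside that of B cells, so that no expression is read from these shares. The ratio of Cd3d to Cd3e in APP/PS1 monocytes, given above, rested on 9 UMIs of Cd3e. Its interval was above those of B cells and T cells, and the source of these UMIs was not tested. Among monocytes with Cd3d, 37.5% in WT and 48.2% in APP/PS1 were called doublets, against 14.6% and 11.4% of those without. With doublets removed the log2 ratio was 1.73 (31 and 71 UMIs), and with cells typed by their marker UMIs it was 1.37 (27 and 46 UMIs). The part of doublets in the remaining difference was not tested. Cd3e (11 and 9 UMIs), Cd3g (32 and 19) and Cd247 (14 and 10) in monocytes had log2 ratios of 0.33, -0.13 and 0.13, with intervals that held 0.

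T cells carried the chains together in both libraries. Of the 414 WT and 539 APP/PS1 T cells, 80.7% and 78.1% had a UMI of Cd3d, 70.8% and 74.8% of Cd3e, 83.1% and 87.0% of Cd3g, and 53.1% and 47.3% of Cd247. Cd3d stood at 1076 UMIs (521 CPM) and 1324 UMIs (583 CPM), a log2 ratio of 0.16 (0.05 to 0.28). Cd3e was at 302 and 382 CPM with a log2 ratio of 0.34 (0.19 to 0.49), and Cd3g at 579.7 and 731 CPM with 0.33 (0.23 to 0.44). Cd247 was at 173 and 168 CPM, with a log2 ratio of -0.05 (-0.26 to 0.17). All 7 genes had enough UMIs in T cells, and 0 passed 1 log2 unit, with 1.21% of 8656 genes higher and 1.95% lower. The small Cd3d difference depended on the cells taken. It was -0.02 with doublets removed and -0.05 with cells typed by marker UMIs, so that its sign was not the same over these choices.

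The T cells formed 2 clusters that differed in the chains. In the cluster led by Cd8b1, a chain of the CD8 coreceptor, Cd3d was at 546 and 619.9 CPM. The log2 ratio of Cd3d there was 0.18 (0.06 to 0.31), and Cd3e and Cd3g had log2 ratios of 0.44 and 0.44. In the cluster led by Tcrg-C1, a constant part of the receptor gamma chain, the log2 ratio was -0.04 (-0.34 to 0.25) for Cd3d, -0.01 for Cd3e and 0.18 for Cd3g. Within WT, the Tcrg-C1-led cells had 845 CPM of Cd3g and 264 CPM of Cd247, against 500.5 and 146 CPM in the Cd8b1-led cells, and Cd3d was lower, at 436 against 546 CPM. The ratio of Cd3d to Cd3g was 0.516 (0.434 to 0.612) in the Tcrg-C1-led cells and 1.09 (0.989 to 1.20) in the Cd8b1-led cells of WT. In APP/PS1 the ratios were 0.441 (0.368 to 0.526) and 0.916 (0.844 to 0.993), so the order of the clusters was the same in both libraries. The cells called doublets made up 20.7% and 11.0% of the Cd8b1-led cells and 15.6% and 5.33% of the Tcrg-C1-led cells in WT and APP/PS1.

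NK cells use the zeta chain without a T cell receptor. Cd247 was at 160.1 CPM in WT (273 UMIs) and 114 CPM in APP/PS1 (329 UMIs), a log2 ratio of -0.49 (-0.73 to -0.26), and its WT level overlapped that of T cells. The receptor-bound chains were lower in the NK cluster of APP/PS1. Cd3d gave 46 and 33 UMIs at a log2 ratio of -1.24 (-1.93 to -0.56), Cd3e 28 and 5 UMIs at -3.25 (-4.98 to -1.86) and Cd3g 67 and 20 UMIs at -2.51 (-3.30 to -1.77). These were 3 of the 7 genes past 1 log2 unit, all lower, in a background of 0.677% of 8417 genes lower and 1.02% higher. The UMIs came from few cells, since 16 WT and 3 APP/PS1 NK cells had a Cd3e UMI. Of the NK cells with Cd3d, 22 of 25 in WT and 13 of 30 in APP/PS1 had a UMI of Cd3e, Cd3g or Cd247. These were 88% (68.8% to 97.5%) and 43.3% (25.5% to 62.6%). Among NK cells without Cd3d the shares were 44.3% and 33.7%, so the APP/PS1 share was not higher beyond counting error. Cd247, which NK cells use, is part of this count. Of the NK cells with Cd3d, 8% in WT and 36.7% in APP/PS1 were called doublets. With the 61 WT and 91 APP/PS1 NK cells left out that had a UMI of Trac, Cd8a, Cd8b1, Cd4, Cd5, Cd6 or Cd28, the log2 ratios were -0.05 for Cd3d (17 and 28 UMIs), -1.94 for Cd3e (9 and 4) and -0.94 for Cd3g (18 and 16). When the 7 genes were kept among the features of the clustering, they were -0.27, -1.64 and -1.70. With cells typed by their marker UMIs, Cd3g was higher in APP/PS1, at 2.01, with 1 and 7 UMIs.

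The remaining types held few UMIs. B cells gave 7 and 17 UMIs of Cd3d, with a log2 ratio of 1.10 (-0.25 to 2.61), 2 and 11 of Cd3e, with 2.28 (0.08 to 5.49), and 28 and 28 of Cd3g, with -0.18 (-0.99 to 0.63). The Cd3d UMIs of APP/PS1 B cells lay in 7 cells, with up to 8 in a cell. Erythroid cells, of which 45.2% in WT and 57.4% in APP/PS1 were called doublets, gave 16 and 25 UMIs of Cd3d, with a log2 ratio of 1.59 (0.63 to 2.60).

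The genes that act with the CD3 chains were counted over a list of 26, from receptor chains and coreceptors to kinases, adaptors and costimulators. In neutrophils, 16 of the 26 had enough UMIs, 3 were over 1 log2 unit higher in APP/PS1 and 0 lower, against 1.27% of all genes higher and 0.974% lower. The median log2 ratio was 0.03, against 0.05 over all genes. The 3 were Trbc2, a constant part of the beta chain, at 21 and 59 UMIs (1.05, 0.31 to 1.85), the costimulator Cd2 at 8 and 30 UMIs (1.47, 0.31 to 2.81), and Trdc, the constant part of the delta chain, at 86 and 270 UMIs (1.21, 0.86 to 1.58). Trdc also had 68 and 102 UMIs in monocytes, at a log2 ratio of 1.20 (0.75 to 1.67), and 510 and 488 UMIs in T cells, at -0.20. The NK cell marker sum in neutrophils was 16.9 and 28.0 CPM, and its part was not tested. The adaptor gene Lat had 37 and 83 UMIs, at a log2 ratio of 0.73 (0.15 to 1.33). The kinase genes Lck and Zap70 had 12 and 17, and 7 and 8 UMIs in neutrophils. Ptprc, Csk, Lcp2 and Fyb, which myeloid cells also use, had log2 ratios of 0.02, 0.01, 0.01 and 0.03 in neutrophils.

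In T cells, 25 of the 26 genes had enough UMIs, 0 were higher and 2 lower past 1 log2 unit, against 1.21% of all genes higher and 1.95% lower, with a median of -0.01 against 0.02 over all genes. Those lower were Trat1, an adaptor that stabilises the receptor complex, at 48 and 18 UMIs (-1.55, -2.42 to -0.74), and the inhibitory receptor Cd5, at 47 and 22 UMIs (-1.23, -2.03 to -0.47). The coreceptor genes Cd8a and Cd8b1 were at 188 and 272 CPM and at 324 and 601 CPM, with log2 ratios of 0.53 and 0.89. Lck, the kinase that phosphorylates the CD3 chains, had a log2 ratio of 0.46 and Zap70, which binds them, 0.26 (-0.06 to 0.57). In monocytes 14 of the 26 had enough UMIs and 1, Trdc, passed the fold, against 0.942% of all genes higher and 1.15% lower. In NK cells 19 had enough and 0 passed it, against 1.02% of all genes higher and 0.677% lower. At such shares, 0 of 19 is not read as a result.

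The partners of Cd247 in NK and Fc receptors were also counted. Of the 6, 5 were in the counts and had enough UMIs in neutrophils, and 0 passed 1 log2 unit. Over all genes there, 1.27% were higher and 0.974% lower, so 0 of 5 is not read as a result. Fcer1g, the gamma chain that takes the place of zeta in myeloid cells, was at 2552 and 2757 CPM, a log2 ratio of 0.11.

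The neighbours Ube4a and Kmt2a had close levels in neutrophils of both libraries. Ube4a, a ubiquitin chain elongation factor, was at 19.9 CPM in WT (433 UMIs) and 22.2 CPM in APP/PS1 (654 UMIs), a log2 ratio of 0.16 (-0.02 to 0.34). Kmt2a, a methyltransferase of histone H3 lysine 4, was at 57.6 CPM (1253 UMIs) and 52.3 CPM (1541 UMIs), a log2 ratio of -0.14 (-0.25 to -0.03). In monocytes and T cells, Ube4a had log2 ratios of 0.03 and 0.14 and Kmt2a 0.09 and 0.16, all with intervals that held 0. The 7 genes listed for the Kmt2a complex include Kmt2d, a related methyltransferase that is not part of that complex. Of the 7, 7 had enough UMIs in neutrophils and 0 passed 1 log2 unit, with a median of -0.09. Over all genes there, 1.27% were higher and 0.974% lower, so 0 of 7 is not read as a result. Ube4b, the other member of the Ube4a family, had a log2 ratio of -0.25.

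Il10ra, the ligand-binding chain of the interleukin-10 receptor, was lower in APP/PS1 in neutrophils, monocytes, T cells and NK cells. It was at 88.7 CPM in WT neutrophils (1932 UMIs) and 57.5 CPM in APP/PS1 neutrophils (1694 UMIs), a log2 ratio of -0.63 (-0.72 to -0.53). The share of neutrophils with a UMI was 21.2% and 15.5%. The log2 ratio was -0.57 in the Cxcl2-led cluster, -0.73 in the Ifit3-led cluster and -0.36 (-1.29 to 0.61) in the Camp-led cluster, where only 17 and 27 UMIs were found. Monocytes had the highest level in both libraries, at 183 and 165 CPM, with a log2 ratio of -0.15 (-0.21 to -0.10). The ratio was -0.21 (-0.28 to -0.13) in the Cd300e- and Ace-led monocytes and -0.05 (-0.14 to 0.04) in the Fn1- and Ccr2-led monocytes. T cells and NK cells had log2 ratios of -0.40 (-0.79 to -0.02) and -0.32 (-0.64 to -0.0033), and in B cells it was -0.29 (-0.74 to 0.14). In neutrophils Il10rb, the second chain of the receptor, was at 93.5 and 93.0 CPM. The kinase genes Jak1 and Tyk2 had log2 ratios of -0.0033 and 0.05 there, Stat3 -0.12 and its target Socs3 0.16. Of the 5 genes with enough UMIs, 0 passed 1 log2 unit, against 1.27% of all genes higher and 0.974% lower. In monocytes, the ligand gene Il10 was at 8.64 CPM in WT (302 UMIs) and 3.12 CPM in APP/PS1 (71 UMIs), a log2 ratio of -1.47 (-1.86 to -1.09). It was the 1 of 6 genes past the fold, against 0.942% of all genes higher and 1.15% lower.

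**Figure D4:**
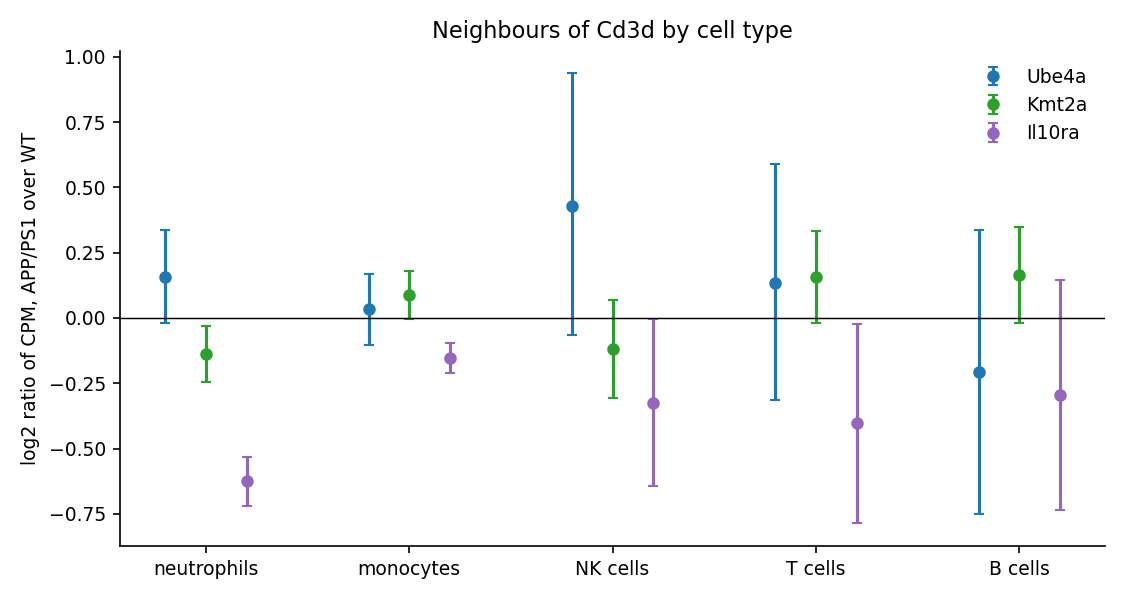
Log2 ratio of CPM, APP/PS1 over WT, of Ube4a, Kmt2a and Il10ra in 5 cell types, with exact conditional 95% intervals and a line at 0 (equal levels). Il10ra lies below 0 in all 5 types, lowest in neutrophils at -0.63, and the intervals of Ube4a cross 0 in all 5.

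The genes around Cd3d were counted over the whole window. Of 123 annotated genes that start within 1 Mb of Cd3d, 85 were in the count tables and 46 had enough UMIs in neutrophils. Cd3d, by whose ratio the set was chosen, was the single gene over 1 log2 unit higher, so that nothing is read from its place among them, and over all genes 1.27% were higher and 0.974% lower. Mcam, a cell adhesion molecule gene that starts at -847317 bp from Cd3d (toward lower coordinates), was the single gene lower, at 69 and 40 UMIs and a log2 ratio of -1.22 (-1.82 to -0.64). The median of the 46 was 0.03, and 0.02 without Cd3d, against 0.05 over all genes. Among the other genes nearest to it, Atp5l, an ATP synthase subunit gene that starts at -61044 bp on the Ube4a side, had a log2 ratio of 0.03. On the Cd3e side, Mpzl3 at 73400 bp had -0.25 and Jaml, a junction adhesion gene at 97397 bp, had 0.29. In monocytes 43 genes had enough UMIs, and those higher were Cd3d and Scn2b, a sodium channel subunit gene with 15 and 23 UMIs (1.24, 0.24 to 2.28). Over all genes in monocytes, 0.942% were higher and 1.15% lower. In T cells 32 genes had enough UMIs and 0 passed the fold, against 1.21% of all genes higher and 1.95% lower. At such shares, 0 of 32 is not read as a result. In NK cells 35 had enough, and the 3 that were lower were Cd3g, Cd3d and Cd3e. Over all genes in NK cells, 0.677% were lower and 1.02% higher.

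**Figure D5:**
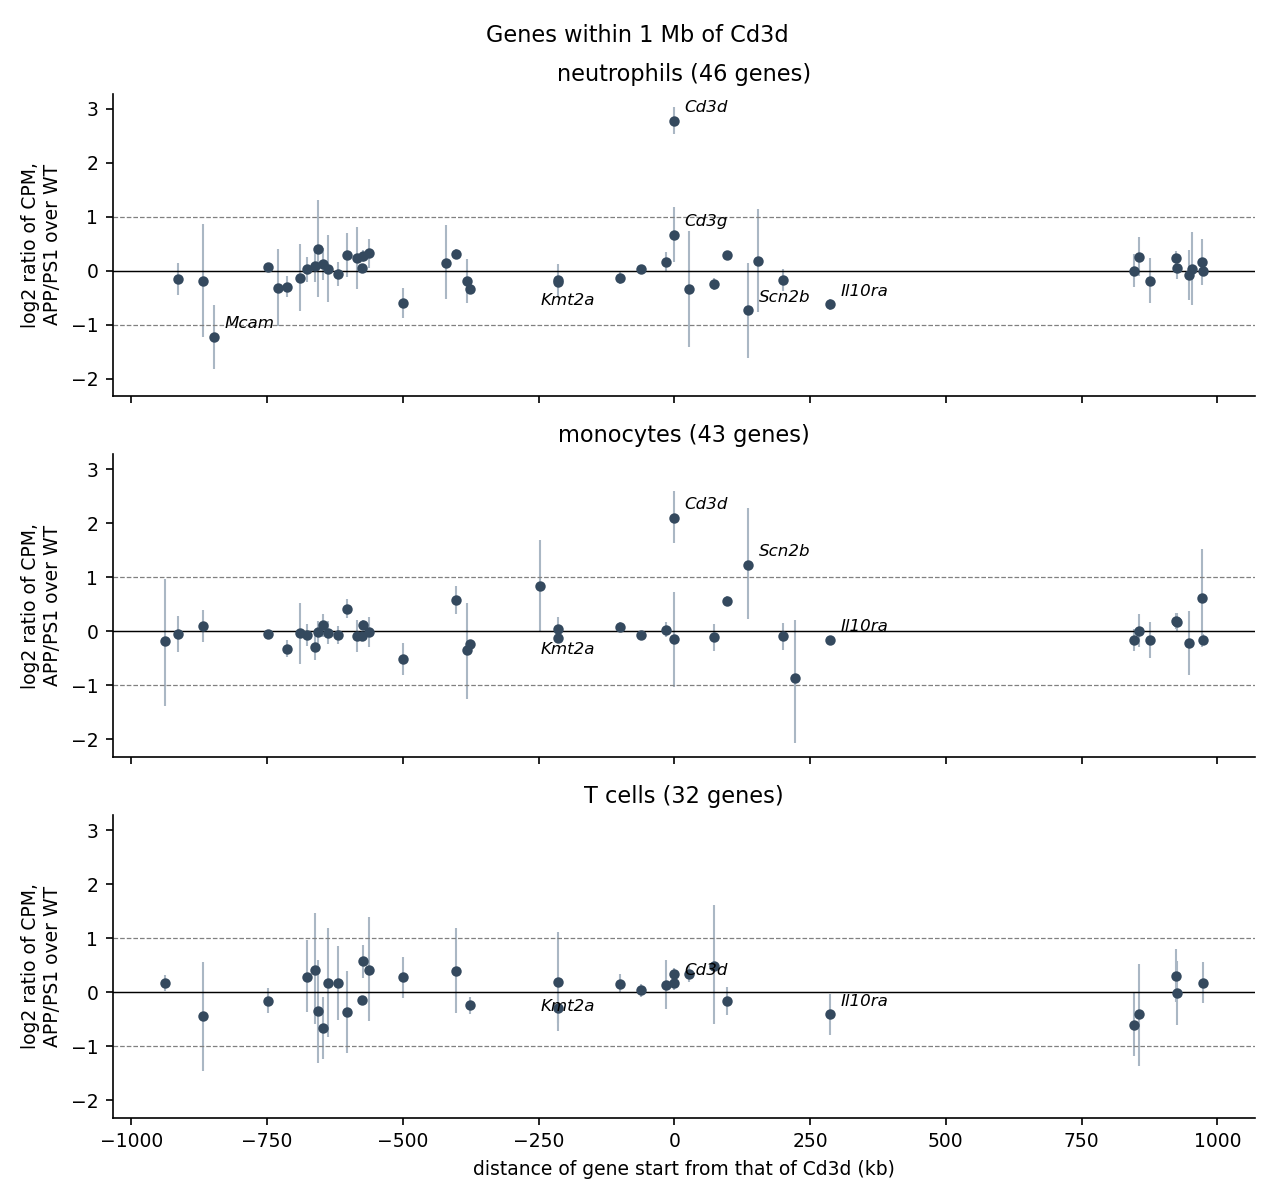
Log2 ratio of CPM, APP/PS1 over WT, against the distance of each gene's start from that of Cd3d (kb), for genes with at least 30 UMIs in neutrophils, monocytes and T cells; bars are exact conditional 95% intervals and dashed lines mark 1 log2 unit. In neutrophils the point above the upper dashed line among 46 genes is Cd3d, at 2.78, the gene the set was chosen by.

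Across 14 points (7 cell types in each library, without platelets), the levels most like that of Cd3d on the scale of log2(CPM + 1) were those of Tcrg-C2, Gzmk, Cd3e, Cd8a and Cd8b1, with Pearson correlations of 0.912, 0.911, 0.909, 0.898 and 0.896 among 10525 genes. For Cd3e they were Cd3g, Cd8a, Trac, Tcrg-C2 and Tcrg-C1, at 0.966, 0.963, 0.960, 0.959 and 0.954. The points of a library share its depth and free RNA, and these values describe the libraries only.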

How the data were processed

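Gene by cell tables of UMI counts (unique molecular identifiers), which the authors deposited after alignment with Cell Ranger 5.0.0 to mm10, were used as deposited, 1 library per genotype (10x Chromium 3′ chemistry). The WT library held 92458623 UMIs (median 3345 per cell) and the APP/PS1 library 84870864 (median 3115). After the study's methods, cells between the 5th and 95th percentiles of genes and UMIs and with at most 10% mitochondrial UMIs were kept (64548783 and 60560111 UMIs), normalized to 10000 UMIs per cell on a log scale, and clustered with Seurat 5.3.0 in R 4.3.3 on 2000 variable features without the members (1996 used), 15 principal components and resolution 0.2. The percentiles were taken per library. The batch correction that the study made between its samples was left out. Variable features were chosen over both libraries together, whereas the study chose them per sample. No cell annotation was used.

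Each of the 12 clusters took the name of the class with most markers at a log2 ratio of at least 1 against the other clusters (5 CPM added), at least 3 of them. Platelets were named only where no leukocyte class qualified, and this rule was set after seeing the data. Doublets were called with Scrublet in scanpy 1.11.5 (8% expected, the threshold of 0.217 of WT used for both libraries, since the automatic APP/PS1 threshold was 0.728) and kept. They made up 1108 WT and 883 APP/PS1 kept cells.

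UMIs were summed per library and cell type and given as CPM. With 1 library per genotype there was no test. Intervals are 95%, Poisson for levels, Clopper-Pearson for shares and conditional for ratios (scipy 1.17.1). The code for ratios was run on simulated Poisson counts, which the intervals assume. That run checks the code and not how well the model describes these cells. Genes with at least 30 UMIs over both libraries were counted against a fold of 1 log2 unit. The genes named are the 7 members, lists for the T cell receptor pathway, the partners of Cd247, the Il10ra pathway, the Kmt2a complex (with the related gene Kmt2d added) and the Ube4 family, genes starting within 1 Mb of Cd3d, and the 5 genes most like Cd3d or Cd3e (at least 200 UMIs). The members and lists were chosen with earlier results of these data known, and the motifs with the sequences at hand. Alternatives changed the cell filter, doublets, cell typing, features, library size (TMM in edgeR 4.0.16), weighting and depth of cells, UMI minimum and window. Those that left out NK cells with T lineage UMIs, the Camp-led cluster or the Ifit3-led cluster were chosen after seeing the data.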

Additional observations from a re-analysis of the deposited data

Results flagged for a closer look

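Each CD3 gene of the receptor had a higher level in APP/PS1 in some cell type and a lower one in NK cells, with intervals on opposite sides of 0. Cd3d had a log2 ratio of APP/PS1 over WT of 2.78 in neutrophils and -1.24 in NK cells, Cd3e 2.28 in B cells (2 and 11 UMIs) and -3.25 in NK cells (28 and 5 UMIs), and Cd3g 0.66 in neutrophils and -2.51 in NK cells. The B cell value of Cd3e was under the minimum of 30 UMIs, and in thinned cells it was 0.88 (-3.38 to 6.76). Counting intervals take UMIs as independent, but the Cd3g UMIs of NK cells lay in 21 WT cells, with up to 8 in a cell, and 9 APP/PS1 cells. Over the alternatives the log2 ratio in NK cells ranged from -1.95 to -0.05 for Cd3d. It ranged from -5.46 to -1.64 for Cd3e and from -3.20 to 2.01 for Cd3g. The difference between the cell types was not tested, since each type was measured in 1 library per genotype.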

How the results depend on the processing

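Cd3d was higher in APP/PS1 neutrophils by a log2 ratio of 2.40 to 2.83 over 12 alternatives. After thinning to 1000 UMIs per cell it was 2.40 in one random draw and 2.88 in another, and the mean over cells, which needs no draw, gave 2.72. Its ratio to Cd3e there was 74.8 to 104 over 10. In monocytes Cd3d ranged from 1.37, with cells typed by marker UMIs, to 2.60. In T cells its 0.16 was 0.030 with percentiles over both libraries, -0.016 without doublets, -0.052 with marker UMIs, and -0.047 and 0.12 in the 2 draws of thinned cells. The neighbours past the fold in neutrophils numbered 2, against 1 with marker UMIs or a window of 0.5 Mb and 19 without a UMI minimum. Cd3g in NK cells was 2.01 with marker UMIs (1 and 7 UMIs) and lower in APP/PS1 in the other alternatives. Cd3d in T cells, whose reported interval did not hold 0, kept its sign in 6 of 9 alternatives. Cd3d in neutrophils, monocytes and T cells and Cd3e in neutrophils were left out of the following count. Of 230 other values of single genes by cell type, that of Cd3g in NK cells included, 210 lay within the counting interval of the reported value. The other sign was found in 11. The other 10 of those were of Cd3e, Cd3g, Cd247 and Ube4a in monocytes and of Ube4a in NK cells, whose reported intervals held 0. The causes were not tested. Cd3e in NK cells had no value with marker UMIs or without percentile limits. Differences between mice cannot be told apart from those between libraries. No paired analysis was possible because each genotype has 1 library.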
